A study of Homo sapiens with 4 samples.

Results

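The high-mobility-group (HMG) chromatin proteins HMGN1 to HMGN5, HMGA1, HMGA2 and HMGB1 to HMGB3 were followed in streptavidin-recovered RNA of DU-145, an established human prostate cancer line. The 10 genes were taken by name from 25671 genes of the deposited tables, and 21 of the 53209 transcript rows belonged to them. The set was chosen by the fold change of HMGN4 in the comparison described here, selected on FPKM of biotin against control, and HMGA1 and HMGA2 were included as published targets of miR-26. The values of that comparison are therefore given as a description. The p-values of members other than HMGN4 are those of a fit across all genes and support no statement about the family.

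In the 2 control libraries the cells had been transfected with an untagged miR-26a duplex at 60 nM. In the 2 biotin libraries they had received, at the same dose, miR-26a duplexes carrying biotin at the 3′ end and a thiouridine, a photo-crosslinkable base, at nucleotide 7 in some molecules and at nucleotide 17 in the others. Cells of both groups were irradiated at 365 nm with 2 J/cm2 the day after transfection. Both groups thus carried added miR-26a, and the effects of the biotin and of the thiouridine cannot be told apart, since no library had only the former or only the latter. The series design describes 2 biological replicates. Levels are given as FPKM, fragments scaled to transcript length and to the number of mapped fragments, and a gene's level is the sum over its transcript rows. Depth, estimated from coverage over FPKM, was 16030000 and 17830000 mapped reads for the controls, and 17560000 and 23640000 for the biotin group. In RNA recovered in bulk, more cells carrying a transcript and more transcript per cell cannot be told apart. All libraries were of recovered RNA, so a difference in recovery and a difference in cellular level cannot be told apart either. As FPKM is a share of each library, a rise of some transcripts lowers the values of others.

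HMG proteins are abundant, small architectural proteins of chromatin. HMGN proteins bind the nucleosome core and compete with linker histone H1, HMGA proteins bind the minor groove of AT-rich DNA through AT-hooks, and HMGB proteins bend DNA with their HMG boxes. HMGB1 is in addition released from stressed or dying cells and acts on receptors such as AGER and TLR4. HMGA1 and HMGA2 are expressed in embryonic tissue and again in many carcinomas. MicroRNAs repress an mRNA mainly by pairing of their seed, nucleotides 2 to 8, with sites in its 3′ UTR.

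The microRNA and the sites that match its seed are shown first, since the members differed in whether they hold such a site. Mature sequences are from the RefSeq microRNA table for GRCh38.p14, with the seed in capitals.
hsa-miR-26a-5p: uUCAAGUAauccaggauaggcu
hsa-miR-26b-5p: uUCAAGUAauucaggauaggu
Both have the same seed. Nucleotides 7 and 17 of miR-26a-5p, the positions that carried thiouridine, are U in this sequence. The complement of the seed in DNA letters is TACTTGA. On the sense strand, that of the mRNA, it occurred in the GENCODE 29 3′ UTR of 4 of the 10 members, once in each. It was in 11.9% of the 3′ UTRs searched, those of 9235 coding genes of the fit. Of the 8 members in the fit, 3 held it. A longer 3′ UTR has more room for a match. The median searched was 963 nt, and those of HMGA2, HMGB3, HMGA1 and HMGN1 had 3003, 2861, 1347 and 797 nt. TACTTGA was in none of the 10 coding sequences. The windows below are read 5′ to 3′ on the sense strand with the 7-base match in capitals, in hg38 coordinates.
HMGN1, 3′ UTR, chr21:39342483-39342512, minus strand: aacgtgaagatactggTACTTGAtagcctc
HMGA1, 3′ UTR, chr6:34246185-34246214, plus strand: gtttcctatttgcagtTACTTGAataaaaa
HMGA2, 3′ UTR, chr12:65963841-65963870, plus strand: taatcttgtagacactTACTTGAtgatttt
HMGB3, 3′ UTR, chrX:150988904-150988933, plus strand: agatgaaggagagggcTACTTGAagctact
In HMGA1 and HMGB3 the match is followed by an A, which makes the 8-base form TACTTGAA, found in 5.41% of the searched 3′ UTRs. The last base of the HMGA1 match is also the first base of AATAAA, the canonical polyadenylation signal.

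HMGN4 and HMGB1, the members with the largest increases in the biotin libraries, lacked the 7-base match. Whether HMGB1 holds a shorter match is not reported here. For HMGN4 the 6-base ACTTGA (complement of nucleotides 2 to 7) is shown, in capitals here, which was present in 34.3% of the searched 3′ UTRs.
HMGN4, 3′ UTR, chr6:26545828-26545857, plus strand: cgatgccatcagcatagACTTGActtcctt
The longest uninterrupted complement to miR-26a anywhere in the reference transcript of HMGN4 was 6 bases, and 99.3% of searched genes had a run at least as long. In HMGA1 the longest run was 9 bases, nucleotides 1 to 9 of the microRNA, and 16.2% of genes had a run at least as long. The reference transcript of HMGN4 has 1225 nt and ends at 26546254 on chromosome 6, while the deposited row has 1968 nt and ends at 26546936, so the end of its 3′ UTR was not searched. HMGN2, HMGN3, HMGN5 and HMGB2 had no ACTTGA in the 3′ UTR that was searched. The reference transcripts of HMGN2 (1191 nt) and HMGB2 (1032 nt) also stop short of the deposited rows (1969 and 1454 nt). The end of these 2 3′ UTRs was therefore not searched.

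Of the 10 members, 8 reached 1 FPKM in 2 or more libraries and entered the fit across 9932 genes. HMGB1 reached that minimum in 1 control library and in both biotin libraries. In the fit (limma on log2(FPKM + 1), two-sided, Benjamini-Hochberg adjusted p below 0.05) HMGN4 and HMGB1 were called higher in the biotin libraries, beside 13.2% of all tested genes. The call of HMGN4, in this and the other fits, follows from its choice by this same fold change and supports nothing further. HMGN1 was called lower, beside 9.33% of all tested genes. HMGN2, HMGN3, HMGA1, HMGB2 and HMGB3 were not called, and HMGN5 and HMGA2 were too low to be tested. Over all genes 1308 were called higher and 927 lower, and with upper-quartile scaling 1224 and 1383. The smallest p of an exact permutation test between groups of 2 is 0.333, so each call rests on limma's spread pooled over genes.

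**Figure D1:**
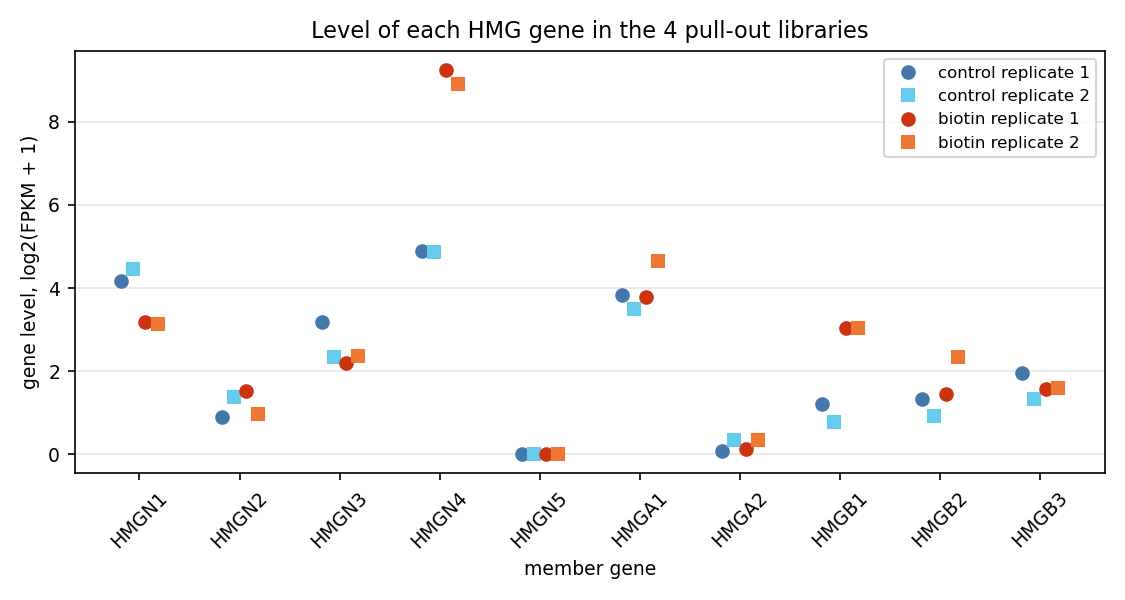
Level of each of the 10 genes, as log2(FPKM + 1), in the 2 control and the 2 biotin libraries, with 1 point per library. HMGN4 and HMGB1 lie higher and HMGN1 lower in both biotin libraries, HMGN5 is at 0 throughout, and HMGA2 is near 0.

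HMGN4 is a nucleosome-binding protein whose coding sequence, close to that of HMGN2, lies in a single exon. Its control levels were 28.9 and 28.4 FPKM, and its biotin levels 606.9 and 480.1 FPKM. The controls were nearly equal, and the lower biotin library was 16.6 times the higher control. The ratio of the group means was 19.0 and the log2 fold change was 4.19 ± 0.21 (SE, n = 2 per group). Only 4 of the other tested genes had a fold change as high. By level HMGN4 ranked 755 and 871 among the 9932 tested genes in control replicates 1 and 2, and 17 and 25 in biotin replicates 1 and 2. It made up 39.2% and 41.5% of the summed FPKM of the 10 genes in the controls, and 94.2% and 90.5% of it after the biotin pull-out. The sum of the other 9 was 44.9 and 40.2 FPKM in the controls and 37.3 and 50.3 FPKM in the biotin libraries, and so overlapped between the groups. The single deposited row of HMGN4 is on chromosome 6, 26538344 to 26546936, and corresponded to an estimated 910 and 995 reads in control and 20925 and 22263 in biotin libraries.

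The 3 tested genes outside the family whose pattern over the 4 libraries was nearest to that of HMGN4 were FKBP14, SEC23A and CLIC4. Likeness was the Euclidean distance of log2(FPKM + 1) after subtraction of each gene's mean, and it was 0.30, 0.48 and 0.50 in that order. FKBP14, an isomerase of the endoplasmic reticulum, had 2.98 and 2.93 FPKM in the controls and 61.7 and 56.1 FPKM in the biotin libraries. SEC23A, of the COPII coat, had 29.7 and 33.3 against 513.4 and 636.1 FPKM, and CLIC4, a chloride channel protein, 17.5 and 22.6 against 564.1 and 461.3 FPKM. As only 4 libraries enter the distance, it picks genes with a difference of like size between the groups.

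**Figure D2:**
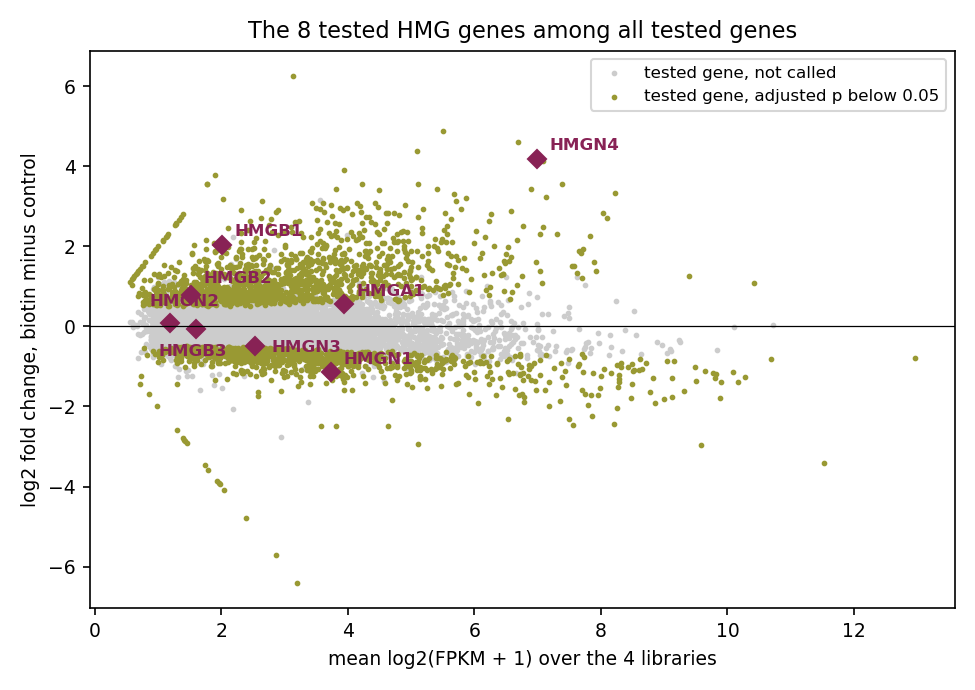
Log2 fold change, biotin minus control, against the mean log2(FPKM + 1) over the 4 libraries for the 9932 tested genes, with the 8 tested HMG genes as labelled diamonds. HMGN4, at 4.19, lies among the highest fold changes, HMGB1 is at 2.04, and HMGN1 is at -1.15.

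The other HMGN genes did not share the increase. HMGN1, the founding member of the family together with HMGN2, had 17.0 and 20.9 FPKM in the controls and 8.15 and 7.78 FPKM in the biotin libraries. The groups did not overlap, and the lower control was 2.08 times the higher biotin library. Its log2 fold change was -1.15 ± 0.18 with an adjusted p of 0.00918 (limma), and without control replicate 2 the adjusted p was 0.0529 (6.99% of all genes were then called higher and 1.45% lower). HMGN1 holds the 7-base seed match shown above. HMGN2, the gene most like HMGN4, was low: its control levels were 0.866 and 1.61 FPKM, its biotin levels 1.85 and 0.95 FPKM. These values overlapped, and the log2 fold change was 0.09 ± 0.25 (adjusted p = 0.808, limma). HMGN3, which binds nucleosomes as the other HMGN proteins do, had 8.13 and 4.10 FPKM in the controls and 3.55 and 4.19 FPKM in the biotin libraries. Control replicate 1 stood above the other 3 libraries, and the log2 fold change was -0.49 ± 0.28 (adjusted p = 0.245, limma). It was -0.07 without control replicate 1 and -0.91 without control replicate 2, neither of them called. HMGN5, an X-linked member with a long acidic tail, was listed at 0 in all 4 libraries. At its length of 2126 nt, 3 reads correspond to between 0.0597 and 0.088 FPKM, a limit that covers counting error only.

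Since HMGN2 and HMGN4 are near copies, their coding sequences were compared. They have the same length of 270 nt and are identical at 233 positions (86.3%), with a longest identical stretch of 20 bases. The first 60 coding bases are shown, with the 7 differing positions in capitals.
HMGN2, coding bases 1 to 60, plus strand, spliced from chr1:26472613-26473527: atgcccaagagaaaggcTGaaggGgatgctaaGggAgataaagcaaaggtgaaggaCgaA
HMGN4, coding bases 1 to 60, chr6:26545207-26545266, plus strand: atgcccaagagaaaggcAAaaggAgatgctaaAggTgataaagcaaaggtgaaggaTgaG
Over the whole coding sequence, any stretch of 50 bases, the read length, differed at between 3 and 13 positions. None of the 1176 windows of 50 bases in the HMGN4 reference transcript occurred unchanged in a GENCODE transcript of another gene, on either strand. In HMGN2 34.2% of windows did, and 33 other genes held at least 1 of them. The HMGN4 reference has 1225 nt and the deposited row 1968 nt, so the rest was not compared, and near matches were not counted. The tables gave the increase to HMGN4, and HMGN2 was listed at no more than 1.85 FPKM in any library. Whether reads of other genes were given to HMGN4 was not tested.

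HMGB1, an HMG-box protein and an extracellular alarm signal, had 1.30 and 0.71 FPKM in the controls. In the biotin libraries it had 7.16 and 7.15 FPKM. Both biotin libraries lay above both controls, and the lower of them was 5.48 times the higher control. The log2 fold change was 2.04 ± 0.18 with an adjusted p of 0.00148 (limma), and 163 of the 9932 tested genes had one at least as high. On a pseudocount of 5 in place of 1 it was 1.02, since the pseudocount weighs on low levels. The single HMGB1 row corresponded to an estimated 71 and 43 control reads and 429 and 577 biotin reads. HMGB2, which is made in proliferating cells, had 1.53 and 0.881 FPKM in the controls and 1.75 and 4.08 FPKM in the biotin libraries. Biotin replicate 1 was only 1.15 times the higher control. The log2 fold change was 0.78 ± 0.31 (adjusted p = 0.116, limma), and without biotin replicate 1 it was 1.22 (adjusted p = 0.00537, limma), in a fit that called 10.7% of all genes higher and 7.4% lower. Without biotin replicate 2 it was 0.34 (adjusted p = 0.383, limma). HMGB3, an X-linked member with a seed match, had 2.85 and 1.50 FPKM in the controls and 1.96 and 2.00 FPKM in the biotin libraries. Both biotin values fell between the controls (log2 fold change -0.06 ± 0.22, adjusted p = 0.868, limma). Without control replicate 1 the fold change of HMGB3 was 0.25, and it was 0.09 on the midpoints of the deposited intervals. Counting genes whose groups did not overlap, HMGN4, HMGB1 and HMGB2 were higher, beside 29.4% of all tested genes, and HMGN1 was lower, beside 37.7%; in either direction it was 67.1% of all tested genes.

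The HMGA genes, published targets of miR-26, differed in level, and HMGA2 was too low for its change to be compared with that of HMGA1. HMGA1 had 13.2 and 10.2 FPKM in the controls and 12.8 and 23.9 FPKM in the biotin libraries. Biotin replicate 1 lay between the controls and biotin replicate 2 above them. The log2 fold change was 0.56 ± 0.31 (adjusted p = 0.227, limma), and without biotin replicate 1 it was 0.98. Without biotin replicate 2 it was 0.13, so the value rests on that library. HMGA2 had control levels of 0.0538 and 0.27 FPKM and biotin levels of 0.0848 and 0.259 FPKM, an estimated 4, 20, 6 and 25 reads. The groups overlapped, and in each group replicate 2 was the higher. All of the HMGA2 signal was in the long transcript NM_003483, whose 3′ UTR of 3003 nt holds the 7-base match. The short transcript NM_003484, with a 3′ UTR of 397 nt and no match, was at 0 in the 4 libraries. No difference in HMGA2 was detectable at this depth.

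The division of a gene's signal among its transcript rows was less stable than the sum. Of the 21 member rows, 8 were above 0 in all 4 libraries, 5 were at 0 in all 4, and 8 changed between 0 and a value above it. HMGA1 has 6 rows, with nearly the same 3′ UTR and 1 seed match in each. NM_145899 held 78.2% and 77.5% of the gene's control FPKM and 50.4% and 63.6% of its biotin FPKM. NM_145903 stood at 8.72 FPKM in biotin replicate 2 and at 0 in biotin replicate 1, while NM_145905 stood at 0 and 4.93 FPKM in these libraries. In HMGN3, NM_138730 had 6.31 FPKM in control replicate 1 and 0 in control replicate 2, where NM_004242 had 3.04 FPKM. In HMGB2, NM_001130688 held 100.0% of the control replicate 1 value and NM_001130689 100.0% of that of control replicate 2. Such rows differ within a group by as much as between groups. When single rows were fitted across 11998 tested rows, the HMGN4 and HMGB1 rows were called higher, beside 2.8% of all rows, and no member row was called lower, beside 1.18%.

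**Figure D3:**
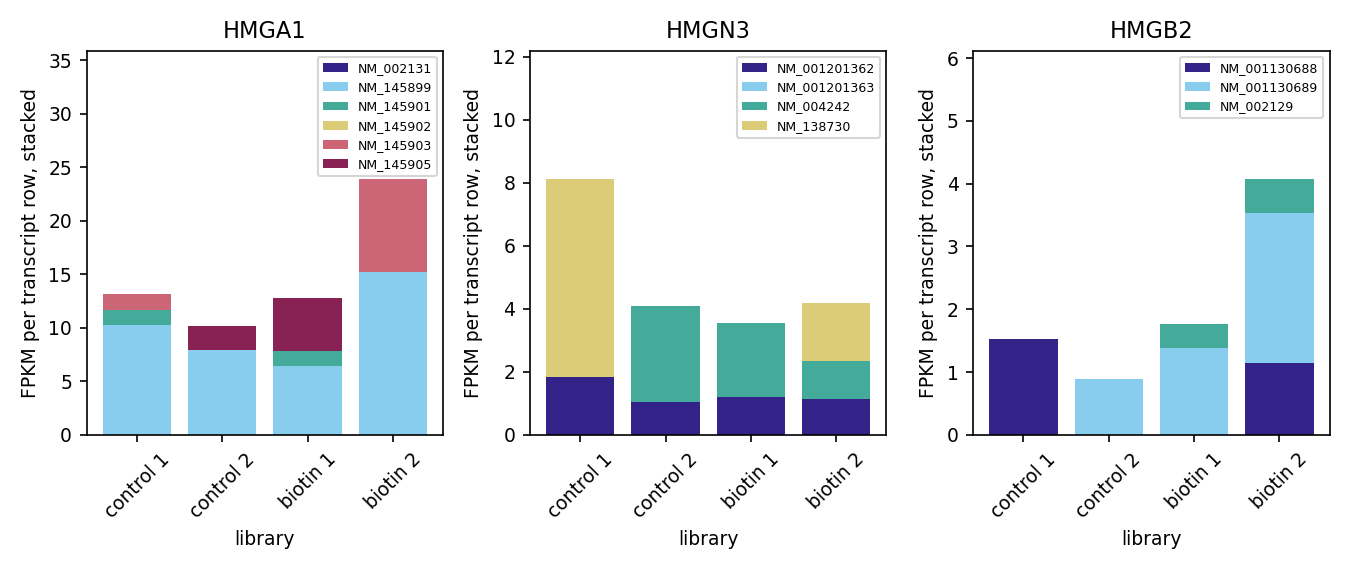
FPKM of each deposited transcript row of HMGA1, HMGN3 and HMGB2, stacked to the gene's level, in the 4 libraries. The rows that make up a gene differ between replicates of 1 group, as in HMGN3, where NM_138730 has 6.31 FPKM in control replicate 1 and 0 in control replicate 2.

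For several members the deposited FPKM lay outside the interval that the same table gives for it. Of 40 member values of at least 1 FPKM, 23 were below their interval, 17 inside and 0 above. HMGN4, HMGN1, HMGB3 and HMGB1 were below it in all 4 libraries. The HMGB1 value of control replicate 2, 0.71 FPKM against 8.66 to 10.8 FPKM, is not among the 40. HMGB1 was listed at 7.16 FPKM in biotin replicate 1 with an interval of 82.4 to 88.4 FPKM. In control replicate 1 it was at 1.30 FPKM with an interval of 8.52 to 11.0 FPKM. The midpoint of the interval was between 7.47 and 13.7 times the FPKM for HMGB1, between 6.30 and 12.4 times for HMGB3, and between 1.20 and 1.37 times for HMGN4. HMGA1 and HMGB2 lay inside their intervals throughout. Over all rows with at least 1 FPKM, between 31.3% and 34.3% lay outside their interval, and between 16.5% and 17.2% below it. How the intervals were made is not given in the sources used here. With interval midpoints in place of FPKM, a comparison added after the values were seen, HMGB1 was at 9.75 and 9.74 among controls and at 85.4 and 77.6 with biotin, a log2 fold change of 2.94 ± 0.15. HMGN4 then changed by 4.29 ± 0.17 and HMGN1 by -0.62 ± 0.17 (adjusted p = 0.0378, limma). These 3 members kept their calls, beside 14.8% of genes called higher and 12.4% lower.

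**Figure D4:**
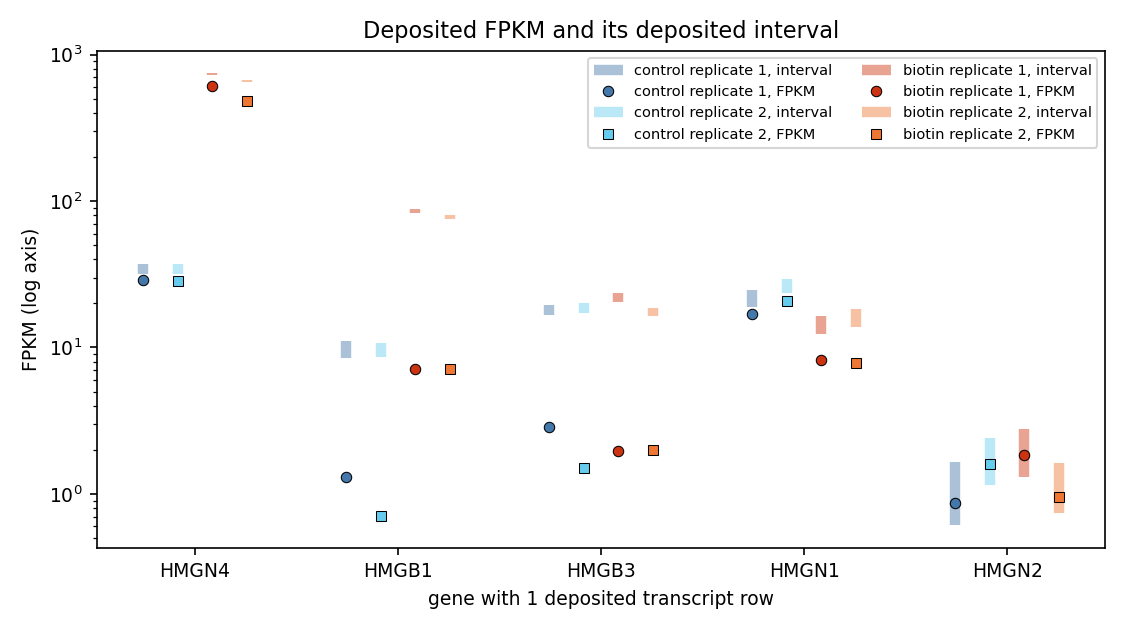
Deposited FPKM (points, log axis) and deposited interval (bars) for the 5 tested genes with a single transcript row, in the 4 libraries. HMGB1 and HMGB3 lie far below their bars, HMGN4 and HMGN1 a little below, and HMGN2 inside; the bars of HMGB1 differ between the groups as its points do.

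Several members have many near copies in the genome. GENCODE 29 lists 48 pseudogenes named for HMGB1, 36 for HMGN2, 31 for HMGN1, 29 for HMGB3, 7 for HMGA1, 1 each for HMGN3 and HMGB2, and 0 for HMGN4, HMGN5 and HMGA2. Only 3 of these have a row of their own in the deposited tables, and those rows were at 0 throughout. Of the coding 50-base windows, 83.2% in HMGB1, 79.6% in HMGN2, 56.2% in HMGN1, 27.2% in HMGA1 and 24.3% in HMGB3 occurred unchanged in a transcript of another gene, against 1.73% in HMGB2 and 0 in HMGN4. Reads from such windows could be divided among copies, so the levels of HMGB1, HMGN2 and HMGN1 are uncertain. The part of this in the values above was not tested. The genes HMGN3-AS1 and RPSAP52, on the opposite strand of HMGN3 and HMGA2, were at 0 in all libraries, except RPSAP52 at 0.039 FPKM in biotin replicate 2.

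Of other HMG-box proteins, 19 of 26 listed genes were tested, 0 were called higher and 2 lower by limma, beside 13.2% and 9.33% of all tested genes, with a median log2 fold change of -0.04. The median over all tested genes was -0.06. The repressor HBP1 went from 2.86 and 2.84 to 1.52 and 1.17 FPKM, and SMARCE1, of the SWI/SNF remodelling complex, from 7.76 and 8.15 to 4.33 and 4.79 FPKM. HBP1 lost its call without either control or biotin replicate 2, and SMARCE1 without either control or biotin replicate 1 (adjusted p between 0.0781 and 0.0953, limma). Both also lost it with no filter on low FPKM (adjusted p = 0.0732 and 0.0596, limma). Linker histones, which compete with HMGN proteins for nucleosomes, were called lower in 4 of 6 tested genes (9.33% of all tested genes) and higher in 0 (13.2%), with a median of -1.67. H1-5 went from 417.7 and 462.7 to 97.6 and 64.7 FPKM, and H1-4 from 399.8 and 481.8 to 120.9 and 103.6 FPKM. Linker histone genes resemble each other, and reads could be divided among them.

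Histone chaperones and the SET complex, to which HMGB2 belongs, had 2 genes called higher and 4 lower of 18 tested, beside 13.2% and 9.33% of all tested genes, with a median of -0.23. ASF1B, a chaperone of H3 and H4, went from 30.5 and 29.2 to 153.5 and 111.6 FPKM (adjusted p = 0.00274, limma). ANP32A, a subunit of the SET complex, went from 3.33 and 1.92 to 5.74 and 6.91 FPKM. NME1, a nuclease of the SET complex, went from 136.5 and 152.5 to 64.1 and 64.3 FPKM. ASF1A, the paralog of ASF1B, went from 4.24 and 6.22 to 2.34 and 2.57 FPKM, the opposite direction to ASF1B. ANP32A and ASF1A lost the call without control replicate 2 (adjusted p = 0.0853 and 0.0952, limma) and with no filter (0.0927 and 0.0981), and NME1 without either control (adjusted p = 0.0515 and 0.0619, limma).

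The labelled cell type was checked on its markers. All 10 epithelial genes listed for DU-145 reached 1 FPKM in at least 2 libraries, and their summed level was 263.4 and 322.1 FPKM in the controls and 294.1 and 324.1 FPKM in the biotin libraries. Within this sum CD44 was at 10.8 and 13.8 against 53.9 and 59.3 FPKM, EGFR at 15.9 and 16.7 against 31.6 and 37.3 FPKM, and KRT18 at 61.5 and 65.0 against 45.1 and 50.0 FPKM. Of 5 blood markers, PTPRC, CD3E and HBB were at 0 in all 4, and the sum was 0.675 and 0.372 FPKM in the controls and 2.57 and 1.30 FPKM in the biotin libraries, nearly all of it CD14. This sum was higher in both biotin libraries, and its part in the results was not tested. Fibroblast markers summed to at most 0.359 FPKM and neuroendocrine markers to at most 0.167 FPKM in any library.

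**Figure D5:**
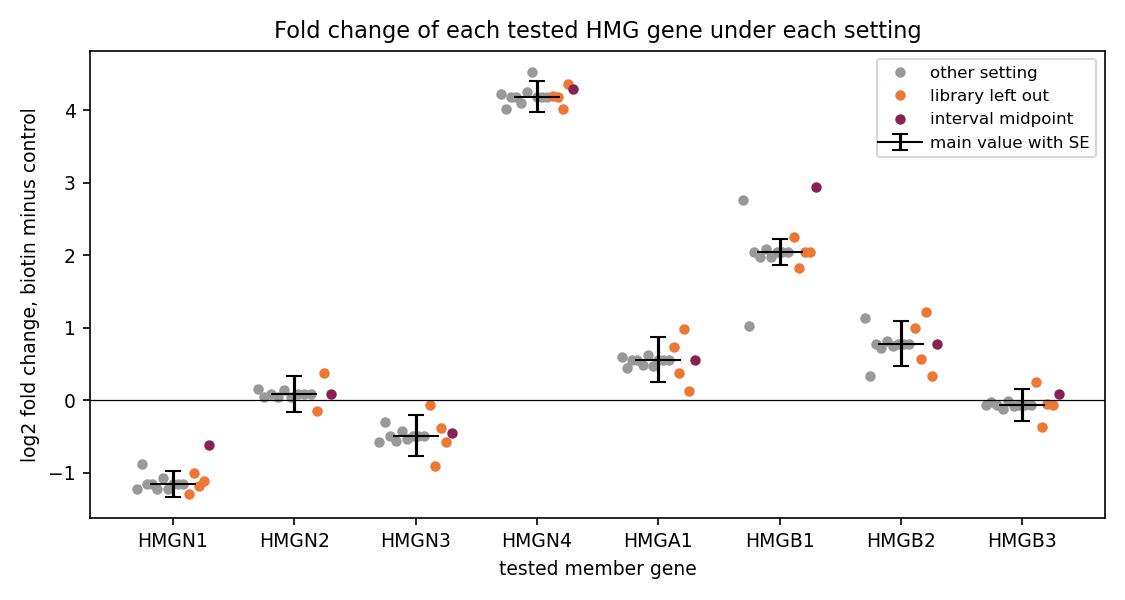
Log2 fold change, biotin minus control, of the 8 tested HMG genes: black bars give the reported value with its SE, and points the values under other settings, with a library left out, or with interval midpoints. HMGN4 stays between 4.02 and 4.53, HMGB1 between 1.02 and 2.94, and HMGN1 between -1.29 and -0.62.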

How the data were processed

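Build hg38 and the tools TopHat2 2.0.9, cutadapt, Cuffdiff, Cufflinks 2.1.1 and FastQC 0.10.1 are named per the submitters' processing notes. The sources used here do not give their roles, the annotation, the strand setting or the handling of reads with several hits. The authors deposited 1 Cufflinks table per library, with FPKM and an FPKM interval per transcript, per the file headers. The coverage signal in the deposited tables served to estimate depth and reads (coverage times length over the read length of 50 bases).

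Members and lists were chosen with earlier results of these data known. Accessions were matched to symbols through RefSeq and GENCODE 29 (98.7% of 46699), and FPKM was summed per gene. The 22 genes with a failed or excess-data row, and short structured RNA genes, were left out. Genes that reached 1 FPKM in 2 or more libraries were fitted with limma 3.58.1 in R 4.3.3 (lmFit, eBayes with trend) on log2(FPKM + 1), at an adjusted p of 0.05. The pseudocount understates the fold change of low genes. The fit was also run on simulated data with normal noise of the same spread for every gene. The deposited values need not have such noise, so that run does not support the calls. Named genes were all members, up to 2 called genes per direction of each list, and the 3 genes nearest to HMGN4. Alternatives were other pseudocounts, filters and scalings, no trend, short RNAs kept, single transcript rows, a replicate block, each library left out, and interval midpoints, the last added after seeing the data. Sites were searched in the GENCODE transcript matched to the member's row of highest mean FPKM. Some results of the search and of the gene lists are not reported here.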

Additional observations from a re-analysis of the deposited data

How the results depend on the processing

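ASF1B, H1-4 and H1-5 kept direction and call in all 15 alternatives, and HMGB1 in the 14 in which it was tested. HMGN4 also did so in all 15, but it was chosen by its rise in these libraries, so this is no support. HMGN1 lost its call only without control replicate 2 among fits on genes, and HMGA1 and HMGB2 gained one without biotin replicate 1. Over all genes the 1308 called higher became 653 with no filter on low FPKM, and the 927 called lower became 231. Leaving out 1 library at a time gave 529 to 1077 higher and 140 to 709 lower, the lone library then being assumed to vary as the others. Of the members, 2 were called higher, and 1 with a mean FPKM of at least 5, where HMGB1 was not tested; with 1 library left out, 2 to 4 were higher and 0 to 1 lower, and in single transcript rows 0 were lower. Of the listed chromatin genes 11 were called lower, 3 with no filter and 4 to 9 with 1 library left out, and 3 were higher, 2 to 3 with 1 library left out. This count also takes in HMGB1 receptors and partners and the genes around HMGA2, LIN28 and let-7, which are not all chromatin genes. Called lower were 2 of 19 tested other HMG-box, 4 of 6 linker histone and 4 of 18 chaperone and SET complex genes. Of HMGB1 receptors and partners 0 of 5 tested were lower, and of the HMGA2, LIN28 and let-7 list 1 of 6. Over all tested genes 9.33% were lower and 13.2% higher, and the all-gene counts also fell with no filter or 1 library left out. With the 8-base form TACTTGAA, 2 members in place of 4 had a site. With 1 library left out the fold change of HMGN2 lay between -0.15 (without control replicate 1) and 0.37, and that of HMGB3 between -0.37 and 0.25 (without control replicate 1); on interval midpoints HMGB3 was at 0.09. Fewer libraries or more low genes enter these fits; the cause was not otherwise tested. Same-numbered libraries showed no shared deviation over genes, with a correlation of 0.00284. This cannot say whether they were prepared together, which the labels do not give. With a replicate block 1079 genes were called higher and 535 lower, and 0 of 13 named calls were lost. Depth limits what can be said of HMGA2, HMGN5 and, below 100 estimated reads in both controls, HMGB1, HMGB2 and HMGN2. HMGN3 and HMGB3 were below 100 in control replicate 2 only, at 78 and 95 reads.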

Other observations

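Of 10 genes around HMGA2, LIN28 and let-7, 6 were tested and 1 was called lower, the cyclin gene CCNA2, from 12.2 and 10.6 to 5.97 and 6.57 FPKM, with 0 higher, beside 9.33% of all tested genes lower and 13.2% higher, and a median of 0.01. CCNA2 lost its call without either control or biotin replicate 1 (adjusted p between 0.0621 and 0.0948, limma) and with no filter on low FPKM (adjusted p = 0.0578, limma). LIN28A, LIN28B, IGF2BP1 and IGF2BP3 were not tested.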
